A study of Homo sapiens with 24 samples.

Results

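The 10 SR splicing factor genes SRSF1, SRSF2, SRSF3, SRSF4, SRSF5, SRSF6, SRSF7, SRSF9, SRSF10 and SRSF11 were followed through peak lists of TR4 and BCL11A binding, out of 20037 protein-coding genes. The family was chosen by the presence of peaks at SRSF6, where a region had them with TR4 and not with BCL11A. For that reason the contrast of the 2 proteins at SRSF6 is given below as a description, with no test. All peaks that overlap a gene record with 2 kb either side (GRCh38) were taken, which gave 29 of the 79570 regions formed by merging the peaks of all 24 libraries.

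SR proteins carry an RNA recognition motif and a tail rich in arginine and serine. They bind enhancer sequences in exons and help the spliceosome to choose splice sites, and kinases of the SRPK and CLK families set their activity by phosphorylation. Many SR genes limit their own output through poison exons, whose inclusion sends the transcript to nonsense-mediated decay, and alternative splicing is widely remodelled as red cell precursors mature. TR4 is an orphan nuclear receptor that binds direct repeats of AGGTCA-like half-sites, and BCL11A is a zinc finger repressor of the fetal γ-globin genes whose known motif is TGACCA.

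The study profiled both proteins by CUT&RUN, in which an antibody directs a nuclease to its target on chromatin and the released fragments are sequenced. The cells were HUDEP-2, an established line of human erythroid progenitors, kept in expansion medium with SCF, EPO, dexamethasone and doxycycline and given no further treatment. Clone T carries TR4 with a C-terminal 3FLAG and 3MYC tag, clone B carries BCL11A with a 3HA and 3MYC tag, and clone TB carries both, so each genotype is represented by 1 clone. Antibodies to MYC and TR4 in clone T and to TR4 in clone TB gave 9 TR4-directed libraries. Antibodies to MYC and HA in clone B and to HA in clone TB gave 9 BCL11A-directed libraries. MYC in clone TB gave 3 libraries that can hold either protein, and IgG gave 1 background library per clone. The labels do not tell whether the 3 libraries of a group are separate cultures, and the spread behind each p-value may therefore be only technical. The tests of 9 libraries against 9 count each library as separate, although they came from clones T and TB against clones B and TB. Outside clone TB, protein and clone go together, so a difference between the proteins cannot be told apart from one between clones.

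Peak numbers ran from 4621 to 31432 in the 21 target libraries and from 2036 to 4828 in IgG. Replicate 3 had the shortest list in 7 of 7 groups. Read counts were not analysed here, so depth is unknown and no interval that needs it is given. Among 11 erythroid marker genes, 10 or 11 had a peak in at least 2 of 3 libraries of each BCL11A-directed group and 2 to 4 in each TR4-directed group. Of 12 markers of other cell types, 1 did in each of the groups. Over all protein-coding genes the share was 50.6% to 55.2% in the BCL11A-directed and 31.6% to 34.8% in the TR4-directed groups. Peak lists were mostly longer in the BCL11A-directed groups. Peaks show occupancy, not expression.

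Both proteins were found at SR genes. In the full lists BCL11A was at more of them, and in lists cut to equal length it was not, with SRSF6 counted in both. With the MYC and the HA antibody in clone B, 10 of 10 SR genes had a peak in at least 2 of 3 libraries, beside 55.2% and 52.3% of all protein-coding genes. With HA in clone TB it was 9 of 10, beside 50.6%. The TR4-directed groups had 7 of 10 each, beside 34.8% (MYC, clone T), 31.6% (TR4, clone T) and 34.5% (TR4, clone TB), and MYC in clone TB had 9 of 10, beside 53.7%. The genes below 2 libraries were SRSF1, SRSF3 and SRSF11 in both groups of clone T. In the TR4 group of clone TB they were SRSF9, SRSF10 and SRSF11. No IgG library had a peak in any of the 10 windows.

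Every list was also cut to its 4621 strongest peaks, the length of the shortest target list. For this cut, strength was the authors' −log10 p, with ties ordered by fold. The counts of SR genes were then 4, 2 and 3 in the TR4-directed groups (MYC and TR4 in clone T, TR4 in clone TB), beside 18%, 18.8% and 19.6% of all protein-coding genes. They were 1, 2 and 3 in the BCL11A-directed groups (MYC and HA in clone B, HA in clone TB), beside 18%, 18% and 17%. MYC in clone TB had 3, beside 19.1%. These counts include SRSF6, which chose the family by its TR4 peaks. At this length it had 9 TR4-directed and 3 BCL11A-directed libraries, so it adds to the TR4-directed counts by choice.

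**Figure D1:**
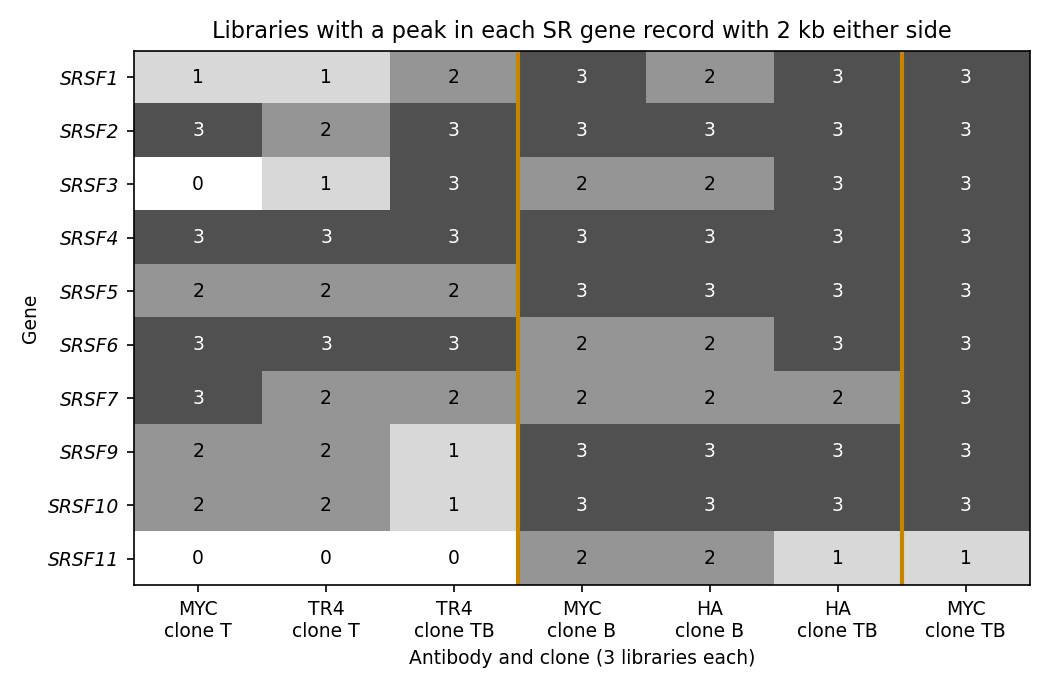
Number of libraries, of 3 per antibody and clone, with a peak in each SR gene record with 2 kb either side. Columns left of the first line are TR4-directed, those between the lines BCL11A-directed, and the last column is MYC in clone TB. SRSF4 reads 3 in all 7 groups, and SRSF11 reads 0 in the 3 TR4-directed groups.

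In the full lists the counts moved with list length. The 4 SR genes with MYC replicate 3 of clone T came from the shortest list of 4621 peaks, the 3 with TR4 replicate 3 of clone T from 5602 peaks, and all 10 were found in each of the 6 lists of 25738 peaks or more. Since the remaining 2 lists must both hold the peak, leaving out 1 library lowered some counts. The count for MYC in clone T fell to 4 without replicate 1 or 2, and that for TR4 in clone T to 3 and 2. It was 4 for TR4 in clone TB without replicate 1. In clone B it was 6 for MYC and 5 for HA without replicate 1 or 2.

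**Figure D2:**
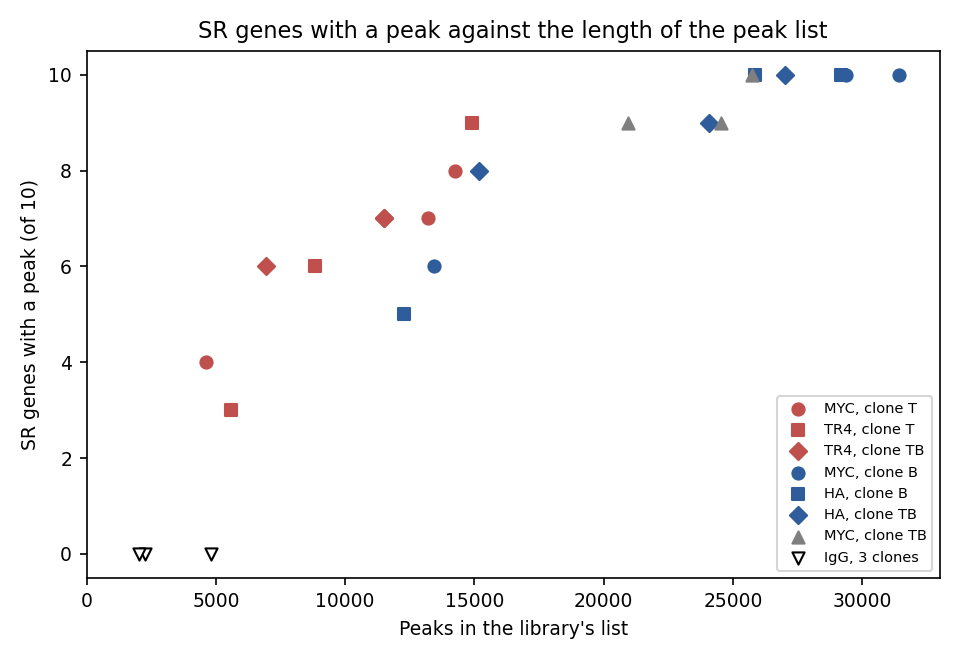
SR genes with a peak, of 10, against the number of peaks in each library's list, for the 21 target and 3 IgG libraries. Libraries with longer lists mostly have a peak at more SR genes, from 3 genes at 5602 peaks to 10 genes at 31432 peaks, and the IgG libraries have 0.

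Tested gene by gene, none of the 9 SR genes other than SRSF6 passed for a difference between the proteins, and SRSF6 was not tested. All 10 reached the minimum of 4 libraries with a peak, of the 18, that was set for testing. Among the 9 genes other than SRSF6, 0 were called by Fisher's exact test (two-sided, Benjamini-Hochberg adjusted over 11957 genes), and 1, SRSF11, had an unadjusted exact p under 0.05 (p = 0.0294, adjusted p = 0.122). Over all tested genes, 0.535% were called with more TR4-directed and 10.7% with more BCL11A-directed libraries, and 27.0% had an unadjusted p under 0.05. The median over SR genes, SRSF6 included, was 5.5 TR4-directed and 8.5 BCL11A-directed libraries, and over tested genes 5 and 8. SRSF4 alone was found in all 18, as were 9.24% of all protein-coding genes. SRSF11 was called when replicate 3 of MYC in clone B, of HA in clone B or of HA in clone TB was left out (Fisher's exact test, adjusted p = 0.0463, 0.0460 and 0.0468). Each of those 3 libraries had no SRSF11 peak, and unequal numbers of libraries make the two-sided test asymmetric. HA replicate 1 of clone TB had no SRSF11 peak either, and without it 0 SR genes were called with more BCL11A-directed libraries. The SRSF11 counts are the same in these cases, so its call also depends on the adjustment over all genes.

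Most tested SR regions lay at gene starts. Of the 29 SR regions, 18 reached the same minimum and were tested, and 11 had fewer libraries. Of the 18, 11 held a transcript start listed in RefSeq promoter records, beside 29.1% of all tested regions. The latter were taken from anywhere in the genome, while each SR window holds a gene start by construction. The shares are therefore not alike, and no excess at SR genes can be read from them. Starts of 9 SR genes are listed there, and each of these 9 genes had a tested region over its own start. SRSF2 has no start listed there, so whether a region held it was not determined. The region over the higher-coordinate end of the SRSF2 record held the listed start of its neighbour MFSD11. The tested region farthest from a start lay in SRSF4, 24653 to 25072 bases downstream. The region just inside the 2 kb limit lay 1249 bases from SRSF1 (0 TR4-directed and 1 BCL11A-directed library) and the nearest outside 3916 bases from SRSF7 (0 and 1). Among tested regions these were the SRSF6 region 266 bases away (7 and 5) and 1 that lay 4513 bases from SRSF10 (2 and 8).

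The DNA at 6 of these starts is shown because the contrasts described below lie on it or inside the same genes. Each line is the part of a region that lies before the gene start, up to the 250 bases that the RefSeq promoter record of GRCh38.p14 holds, read 5′ to 3′ on the gene's own strand. The 21 capitals are centred on the median summit of all peaks in the region. The regions of SRSF4, SRSF3, SRSF5 and SRSF10 reach beyond their lines, and the median TR4 summit at SRSF4, 279 bases before the start, lies outside its line. The stretches are SRSF6 at chr20:43457733-43457895 on the plus strand, SRSF4 at chr1:29181901-29182150 on the minus strand, SRSF3 at chr6:36594112-36594361 on the plus strand, SRSF5 at chr14:69766892-69767141 on the plus strand, SRSF10 at chr1:23980328-23980577 on the minus strand and SRSF1 at chr17:58007247-58007483 on the minus strand.
SRSF6: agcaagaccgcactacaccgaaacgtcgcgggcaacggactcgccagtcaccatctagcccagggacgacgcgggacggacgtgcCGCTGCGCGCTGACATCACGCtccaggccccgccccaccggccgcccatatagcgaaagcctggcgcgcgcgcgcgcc
SRSF4: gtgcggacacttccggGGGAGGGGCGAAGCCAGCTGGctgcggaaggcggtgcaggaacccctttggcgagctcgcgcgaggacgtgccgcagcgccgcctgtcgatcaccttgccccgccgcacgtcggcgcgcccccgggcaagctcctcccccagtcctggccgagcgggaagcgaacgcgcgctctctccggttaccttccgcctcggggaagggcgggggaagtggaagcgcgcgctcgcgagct
SRSF3: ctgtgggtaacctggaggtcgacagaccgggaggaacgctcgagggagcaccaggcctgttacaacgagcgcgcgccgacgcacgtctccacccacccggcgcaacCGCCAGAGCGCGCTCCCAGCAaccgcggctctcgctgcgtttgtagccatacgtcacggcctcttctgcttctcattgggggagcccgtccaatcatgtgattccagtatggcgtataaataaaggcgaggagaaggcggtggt
SRSF5: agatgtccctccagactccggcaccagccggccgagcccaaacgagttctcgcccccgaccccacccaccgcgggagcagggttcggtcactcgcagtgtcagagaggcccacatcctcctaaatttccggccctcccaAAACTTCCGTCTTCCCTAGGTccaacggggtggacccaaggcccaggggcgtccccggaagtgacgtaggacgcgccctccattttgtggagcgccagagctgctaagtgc
SRSF10: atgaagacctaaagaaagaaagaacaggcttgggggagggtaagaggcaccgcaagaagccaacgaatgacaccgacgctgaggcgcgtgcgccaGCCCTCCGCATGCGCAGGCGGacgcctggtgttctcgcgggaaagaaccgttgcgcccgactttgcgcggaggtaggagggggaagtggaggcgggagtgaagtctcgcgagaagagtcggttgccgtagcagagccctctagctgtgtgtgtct
SRSF1: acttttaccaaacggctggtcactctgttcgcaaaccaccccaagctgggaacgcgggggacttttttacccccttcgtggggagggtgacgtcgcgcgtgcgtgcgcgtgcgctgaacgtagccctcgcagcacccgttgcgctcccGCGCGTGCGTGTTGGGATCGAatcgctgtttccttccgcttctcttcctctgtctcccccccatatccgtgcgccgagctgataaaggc
They were rich in G and C, from 61.2% in SRSF10 to 73.6% in SRSF4. Promoter records of 9 SR genes (11 windows of 250 bases before to 50 after a start) were searched on both strands. The half-site AGGTCA was in 0 of 11, beside 13.8% of all 35116 windows, and the repeat AGGTCANAGGTCA in 0 of 11, beside 0.0228%. TGACCA was in 1 of 11, beside 10.7%, and lay 221 bases before the start of SRSF1. A match is only a match of letters, and these windows do not cover the regions inside the genes.

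SRSF6, which encodes the splicing regulator also called SRp55, had 4 regions in a row. Their peaks lay 496 to 267 bases before the start, across the start (163 before to 30 after), 272 to 645 bases into the gene and 982 to 1519 bases into the gene. The TR4-directed count went from 7 of 9 through 9 of 9 in each of the other 3, and the BCL11A-directed count from 5 through 7 and 3 to 0 of 9. The 2 regions inside the gene thus had peaks in all 9 TR4-directed libraries and in 3 and 0 BCL11A-directed ones.

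The innermost SRSF6 region (chromosome 20, 43458878 to 43459415) was the 1 that led to the choice of the family. Its fold enrichment, the authors' value for each peak, was 74.5, 84.0 and 27.6 with MYC in clone T for replicates 1 to 3. With the TR4 antibody it was 52.5, 60.1 and 24.5 in clone T and 70.3, 87.1 and 48.3 in clone TB. All 9 values came from TR4-directed libraries, and the lowest 2 came from the replicate 3 libraries of clone T. These peaks stood between the 90.5th and the 97.5th percentile of fold in their own lists. MYC in clone TB had a peak in 3 of 3 libraries with folds of 101, 92.0 and 59.3, at the 98.3rd to 99.1st percentile. It was not part of the contrast behind the choice. As it also captures the tagged TR4 of the same cells, it gives no independent support. HA in clone TB had 0 of 3 in the same cells. The strongest peak's summit lay 1374 to 1382 bases from the start in all 9 TR4-directed libraries, a spread of 8 bases, and in the same range in the MYC libraries of clone TB. Whether this stretch is exon or intron is not given in the gene table used here.

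**Figure D3:**
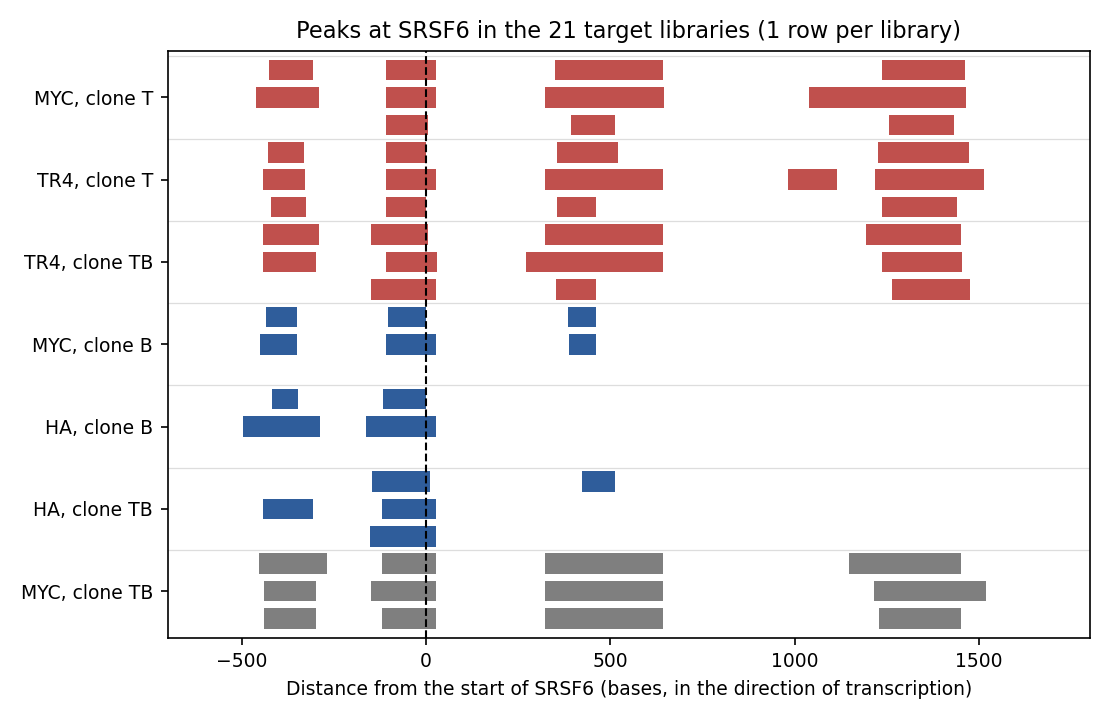
Peaks at SRSF6 in the 21 target libraries, 1 row per library with replicate 1 on top, plotted by distance in bases from the gene start (dashed line). TR4-directed libraries are red, BCL11A-directed blue and MYC in clone TB grey. The block at 982 to 1519 bases is filled in 9 red and 3 grey rows and in 0 blue rows.

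At the start of SRSF6 both proteins had peaks with nearby summits. TR4-directed folds there ranged from 9.63 through a median of 14 to 20.8, and BCL11A-directed folds from 5.87 through 15.7 to 23.1. The BCL11A-directed libraries without a peak were replicate 3 of MYC and of HA in clone B. Median summits of the 2 proteins were 15 bases apart. In the next region inside the gene, all 9 TR4-directed libraries had a peak, with a median fold of 16.8, and 3 BCL11A-directed ones did, replicates 1 and 2 of MYC in clone B (10.0 and 15) and replicate 1 of HA in clone TB (8.02).

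Regions with the SRSF6 pattern were uncommon. Of 24485 tested regions, 67 (0.274%) were found in all 9 TR4-directed libraries and in 0 with BCL11A, and by mean fold percentile in the TR4-directed lists the SRSF6 region was number 8 of these. Over all 24 libraries, 63 other regions had the identical pattern of presence. Ranked by the same percentile, the first 5 protein-coding genes holding such a region were CRNKL1 and CFAP61, which share one, then FGF14, NR2C1 and NUDT5, each differing from SRSF6 in 0 of 24 libraries.

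SRSF10 also had an inner region without BCL11A-directed peaks. SRSF10, or SRp38, is an SR protein that can act as a splicing repressor when dephosphorylated. The region (chromosome 1, 23977904 to 23978082) lies 2245 to 2423 bases into the gene. MYC in clone T gave folds of 21.5 and 18.6 and TR4 in clone T 12.1 and 10.7, in replicates 1 and 2 of each. MYC in clone TB gave 6.90, 6.83 and 7.2 in replicates 1 to 3. TR4 in clone TB had 0 of 3, as did each BCL11A-directed group. The count of 4 TR4-directed against 0 BCL11A-directed libraries did not pass (Fisher's exact test, adjusted p = 0.146 over all tested regions). No test within a clone could pass, since 3 libraries against 3 cannot go below 0.1.

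The start of SRSF10 went the other way and was called with more BCL11A-directed libraries. At 23980246 to 23980649, peaks were present in 9 of 9 libraries for BCL11A and 2 of 9 for TR4 (Fisher's exact test, adjusted p = 0.0130). BCL11A-directed folds ranged from 6.02 through 7.46 to 11.3. The 2 TR4-directed peaks were weak, with 5.09 for TR4 replicate 3 in clone TB and 4.94 for MYC replicate 2 in clone T, at the 12.7th and 11.5th percentile of their lists. So SRSF10 held a start called with BCL11A and, inside the gene, a region with peaks in TR4-directed and in no BCL11A-directed libraries.

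SRSF5 (SRp40) carried the other called region, again with BCL11A. At 69767667 to 69767940 on chromosome 14, 525 to 798 bases past the start, BCL11A peaks were present in 7 of 9 libraries and TR4 peaks in 0 of 9 (Fisher's exact test, adjusted p = 0.0130). HA in clone B gave folds of 10.0, 17.3 and 8.51 in replicates 1 to 3. MYC in clone B gave 7.61 and 20.8 and HA in clone TB 5.73 and 8.31, in replicates 1 and 2 of each. The 2 BCL11A-directed libraries without it were thus replicate 3 ones. MYC in clone TB had 3 of 3. The region also holds the start of LOC100289511, a long noncoding RNA gene that runs the opposite way from SRSF5, so it cannot be assigned to SRSF5 alone. At the start of SRSF5 itself both proteins had peaks, in 6 TR4-directed and 9 BCL11A-directed libraries (adjusted p = 0.322, Fisher's exact test).

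**Figure D4:**
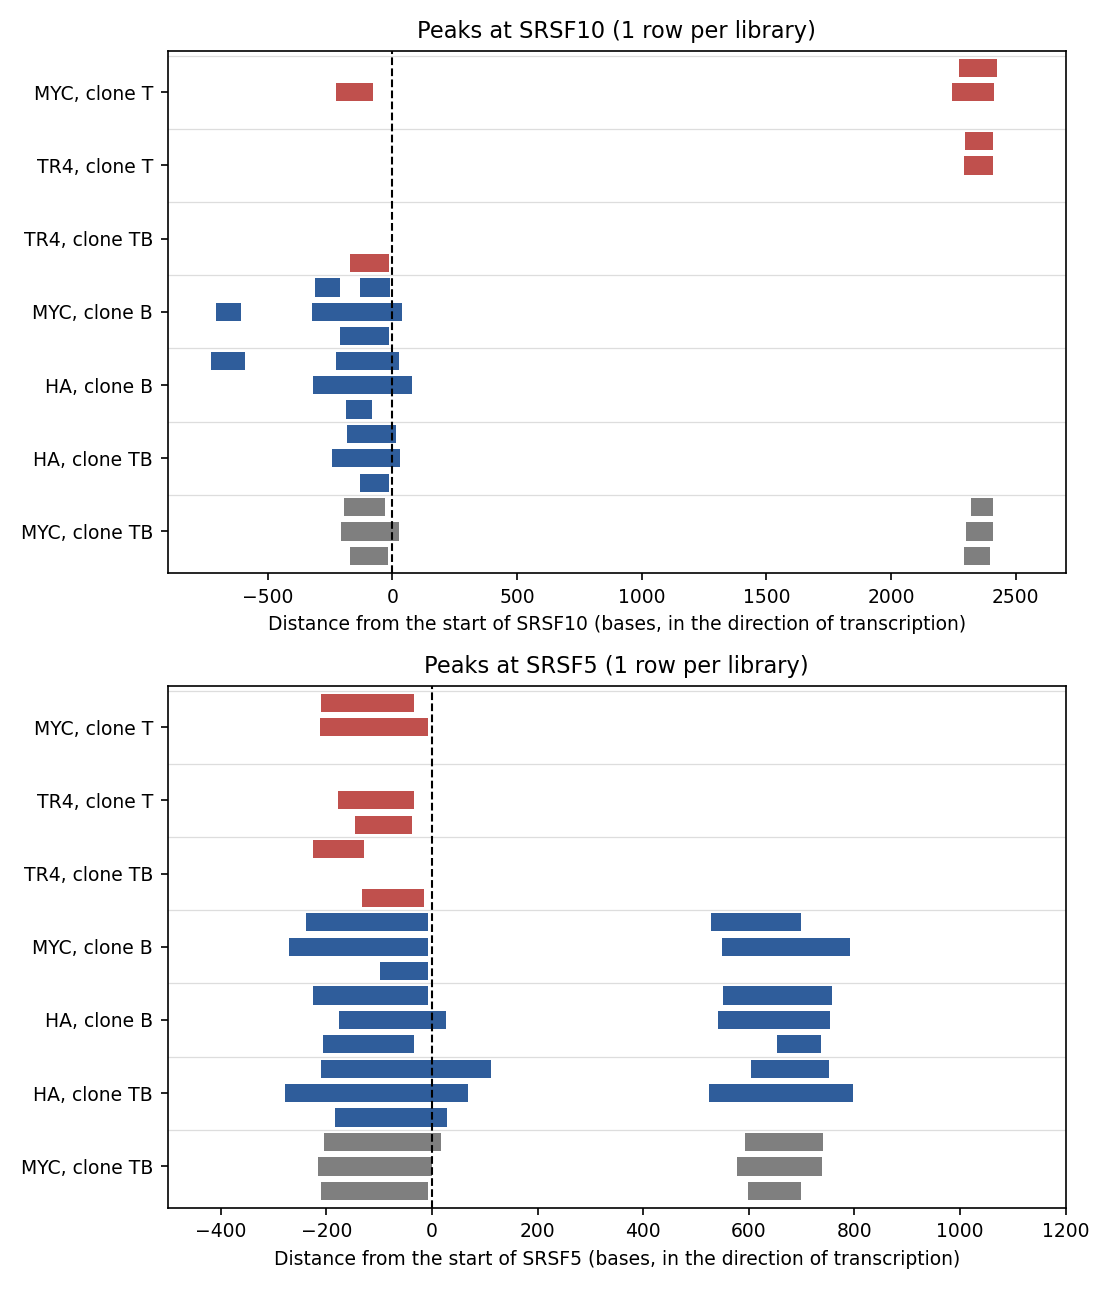
Peaks at SRSF10 (top) and SRSF5 (bottom), 1 row per library with replicate 1 on top, by distance in bases from each gene start (dashed line). TR4-directed libraries are red, BCL11A-directed blue and MYC in clone TB grey. The SRSF10 block 2245 to 2423 bases in has 4 red, 0 blue and 3 grey rows, and the SRSF5 block 525 to 798 bases in has 0 red, 7 blue and 3 grey rows.

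These 2 were the only calls among the 14 tested regions of the 9 genes other than SRSF6, and 0 of the 14 were called with more TR4-directed libraries. Over all tested regions, 25.6% were called with more BCL11A-directed and 2.00% with more TR4-directed libraries, so 2 of 14 was not above that share. Those regions were taken from anywhere in the genome, and the sets are not alike. Both calls were lost with the MYC libraries left out (adjusted p = 0.0656 each, Fisher's exact test), without replicate 1 of every group (0.167 each) and without replicate 2 (0.145 for SRSF5 and 0.0632 for SRSF10). With replicate 3 of MYC in clone B, of HA in clone B or of HA in clone TB left out, the number of SR regions called with more BCL11A-directed libraries was 4, 5 and 4, through regions of SRSF1 and SRSF2.

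SRSF4, or SRp75, one of the longest SR proteins, had peaks of both proteins in nearly every library at its start. At 29181885 to 29182280 on chromosome 1, TR4 peaks were present in 9 of 9 libraries and BCL11A peaks in 8 of 9. No SR region tested was found in 9 of 9 for both, as 5.93% of all tested regions were. The folds were 51.8, 61.1 and 22.3 with MYC in clone T, 20.8, 25.8 and 12.6 with TR4 in clone T and 20.2, 23.9 and 19 with TR4 in clone TB. BCL11A-directed folds ranged from 6.93 through 9.53 to 17.3, with no peak in HA replicate 3 of clone TB. MYC in clone TB gave 30.8, 27.2 and 40.6. Within their own lists the TR4-directed peaks stood at the 75.1st to 96.1st percentile and the BCL11A-directed ones at the 41.6th to 82.5th. The ranges overlap, and percentiles of lists of different length show no change by themselves.

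The count at the SRSF4 start changed with list length. In the full lists it did not differ (Fisher's exact test, adjusted p = 1). When the 4621 strongest peaks of every library were kept, 9 TR4-directed and 1 BCL11A-directed library had the peak (adjusted p = 0.00197, Fisher's exact test), and as a gene SRSF4 had 9 and 2 (adjusted p = 0.00916, beside 20.4% and 15.5% of genes called in either direction at that length). At that length 21.1% of 7570 tested regions were called with more TR4-directed and 19.6% with more BCL11A-directed libraries. At the same length the innermost 2 SRSF6 regions each had 9 and 0 libraries, the called SRSF5 region had 0 and 1, and the SRSF10 start had 0 of each. Inside SRSF4, a region 24653 to 25072 bases from the start had 5 TR4-directed and 9 BCL11A-directed libraries (adjusted p = 0.146, Fisher's exact test).

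**Figure D5:**
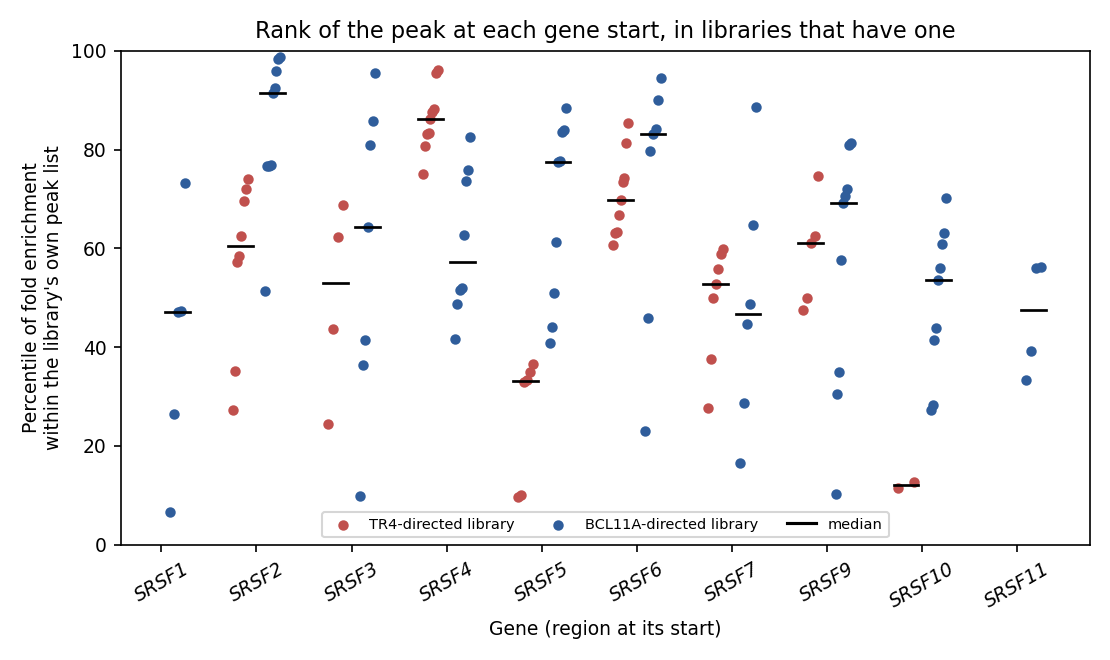
Percentile of fold enrichment within the library's own list for the peak at each SR gene start (for SRSF2, its region with most libraries), 1 point per library that has one, with the median as a bar. TR4-directed libraries are red and BCL11A-directed blue. SRSF4 has the highest red points, from 75.1 to 96.1, and SRSF1 and SRSF11 have no red point.

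SRSF2 and SRSF7 had peaks of both proteins at similar numbers of libraries. SRSF2 (SC35), which binds exonic enhancers and is recurrently mutated in myelodysplastic syndromes, had 8 TR4-directed and 9 BCL11A-directed libraries at 76737132 to 76738129 on chromosome 17 (adjusted p = 1, Fisher's exact test). BCL11A-directed folds there ran from 7.75 through 15.6 to 37.9 and TR4-directed folds from 6.43 through 11.3 to 15.3. The region spans 998 bases, its median summits were 155 bases apart, and many libraries had 2 peaks in it. MFSD11, a neighbouring gene, starts within it in the promoter records, and its gene record begins inside SRSF2, so the region cannot be given to SRSF2 alone. A smaller region inside SRSF2, 76736461 to 76736712, had 0 TR4-directed and 5 BCL11A-directed libraries (adjusted p = 0.0731, Fisher's exact test) and overlaps the miRNA gene MIR636. SRSF7 (9G8), which also takes part in mRNA export, had 1 region, at its start, with 7 and 6 libraries (chromosome 2, 38751259 to 38751600; adjusted p = 1, Fisher's exact test).

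SRSF9, SRSF1 and SRSF11 had more BCL11A-directed libraries at their starts, without passing. SRSF9 (SRp30c) had 5 TR4-directed and 9 BCL11A-directed libraries at 120469684 to 120469950 on chromosome 12 (adjusted p = 0.146, Fisher's exact test). That region also holds the start of DYNLL1, a dynein light chain gene. SRSF1 (SF2/ASF), the prototype of the family, had 0 and 5 over its start (58007225 to 58007483 on chromosome 17; adjusted p = 0.0731) and 3 and 8 just upstream (58007490 to 58007824; adjusted p = 0.115, both Fisher's exact test). The 3 TR4-directed folds at the upstream region were 6.41, 4.59 and 3.76, all in the lower part of their lists. SRSF11 (p54) was the only SR gene without a TR4-directed peak. Its start region (chromosome 1, 70205553 to 70205763) had a peak in replicates 1 and 2 of MYC and of HA in clone B, with folds of 6.84, 9.96, 7.26 and 10.3 (0 against 4, adjusted p = 0.146, Fisher's exact test). It also holds the start of LRRC40.

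At SRSF3, TR4-antibody peaks were found mainly in clone TB. SRSF3 (SRp20), a short SR protein that also acts in mRNA export, had TR4-antibody peaks in 3 of 3 libraries of clone TB, with folds of 6.00, 8.41 and 12.2 in replicates 1 to 3. In clone T, 1 of 3 TR4 libraries (fold 10.8, replicate 2) and 0 of 3 MYC libraries had one. HA showed 3 of 3 in clone TB (15.8, 24.8 and 11.3) and 2 of 3 in clone B (7.48 and 11.7), where MYC also showed 2 of 3 (4.95 and 7.45). The region, 36594104 to 36594396 on chromosome 6, had 4 TR4-directed and 7 BCL11A-directed libraries in all (adjusted p = 0.487, Fisher's exact test). A difference between clones could not pass, since Fisher's exact test of 3 libraries against 3 cannot go below 0.1.

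Pairs of groups that share a target or a clone gave no SR gene at the extremes. In 6 pairs (MYC and TR4 in clone T, MYC and HA in clone B, TR4 in clones T and TB, HA in clones B and TB, and MYC with HA or TR4 in clone TB), 0 SR genes had a peak in 3 of 3 libraries of one group and 0 of 3 of the other. Over all protein-coding genes the share was 0.0399% for MYC and not TR4 in clone T and 0.0848% the other way. It was 0.0848% for MYC and not HA in clone B and 0.0200% the other way. Between clones it was 0.294% for TR4 in T and not TB, 0.484% in TB and not T, 0.344% for HA in B and not TB and 0.329% in TB and not B. Within clone TB it was 1.13% for MYC and not HA, 0.230% for HA and not MYC, 7.04% for MYC and not TR4 and 0.0200% for TR4 and not MYC. With libraries left out, the rule was a peak in all remaining libraries of one group and 0 of the other. The shares above do not apply to that looser rule. SRSF3 met it for TR4 in clones TB and T without TR4 replicate 2 of clone T. For TR4 in clones T and TB, 1 gene, SRSF10, met it without replicate 3 of every group. Without TR4 replicate 2 or replicate 3 of clone TB, 1 gene each met it for MYC and not TR4 in clone TB, SRSF9 and SRSF10.

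Summits of the 2 proteins were compared within SR regions, where merging of overlapping peaks itself keeps them near each other. In 11 regions with at least 3 libraries of each, median summits were 1 to 155 bases apart, with a median of 10, and 9 of the 11 were within 50 bases. In all 11 the ranges of summits overlapped. At the SRSF9 start the medians differed by 1 base and at the SRSF5 start by 4. The other distance above 50 bases was 60, at the SRSF4 start, where most TR4-antibody summits lay farther upstream than the BCL11A ones.

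Other genes of the splicing pathway were taken from 5 lists that hold no SR gene. In these lists (SR-related proteins, SR protein kinases and import, hnRNP proteins, core spliceosome and nonsense-mediated decay), 104 genes were found and 97 tested. Of these, 0 were called with more TR4-directed and 2 with more BCL11A-directed libraries by Fisher's exact test, beside the 0.535% and 10.7% of all tested genes. An unadjusted p under 0.05 in that test was found for 13, beside 27.0% of all tested genes. Called genes were SRRM2, a scaffold of nuclear speckles, and SNRPD1, a core Sm protein, each with 1 TR4-directed and 8 BCL11A-directed libraries (adjusted p = 0.0301, Fisher's exact test). Median numbers were 7 TR4-directed and 8 BCL11A-directed libraries.

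By list, SR-related proteins had a median of 8 TR4-directed and 9 BCL11A-directed libraries, hnRNP proteins 8 and 9, core spliceosome 8 and 7.5, nonsense-mediated decay 6 and 7, and SR protein kinases and import 3 and 7. At the level of regions, 3 of 64 in core spliceosome genes were called with more TR4-directed libraries, beside 2.00% of all tested regions, and 0 in each of the other 4 lists. With more BCL11A-directed libraries it was 8 of 36 regions in SR-related proteins, 5 of 51 in hnRNP proteins, 1 of 14 in SR protein kinases and import, 2 of 64 in core spliceosome and 0 of 25 in nonsense-mediated decay, beside 25.6%. The 3 TR4-called regions lay in SF3B4, of the U2 particle (6 and 0 libraries), and SNRPF, a core Sm protein (9 and 3, and 6 and 0), each with an adjusted p of 0.0328 by Fisher's exact test. SF3B4 and SNRPF are named because the count is small, after their values were seen.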

How the data were processed

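The submitters' processing notes name Trimmomatic, Bowtie2, Picard, SAMtools and MACS2 2.1.4 and the build GRCh38, with no role or settings. Every library has its own deposited list of called peaks. For each peak the authors give the fold enrichment as a ratio, the −log10 p and −log10 q-value, a display score that was not used, and the summit's offset. The lowest −log10 q in the target lists was 2.00 to 2.05. Folds were used only within a list, except where set side by side as values.

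Peaks sharing at least 1 base were merged over all 24 lists. Those overlapping IgG peaks were dropped. Fisher's exact test was run where at least 4 of 18 libraries had a peak (two-sided, Benjamini-Hochberg adjusted, threshold 0.05) over 24485 regions or 11957 genes. Gene records came from RefSeq (GRCh38.p14), and starts and strands from its promoter records, which were matched by symbol for 9 of 10 members. SRSF2 was not matched. The 5 splicing lists had 104 genes matched by symbol. The members and all lists were chosen with earlier results of these data known. Named genes follow a rule: all members, up to 4 called genes per splicing list and direction, and the 5 genes most like the SRSF6 region. The region test was checked on simulated data. Python 3.11.15, pandas 2.3.3 and scipy 1.17.1 were used. Alternatives were stricter peaks, equal list lengths, summits, IgG regions kept, other windows, no minimum, no MYC libraries, a replicate block and libraries left out.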

Additional observations from a re-analysis of the deposited data

How the results depend on the processing

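The 17 counts (SR regions and genes called, SR genes with a peak per group, and pairs of groups) were recomputed in 294 cases, and 240 stayed within 1.5 times. Of 803 recomputed values of single regions and genes, 774 kept their side of the threshold or size, 22 newly passed, 6 no longer passed and 1 moved. None of the 803 reversed. Outside SRSF6, regions and genes with too few libraries for the test in an alternative are not among the 803. At equal list lengths both called regions were lost in this way. The SRSF5 region then had 0 TR4-directed and 1 BCL11A-directed library, and the SRSF10 start 0 of each. Among the items left out there, the direction of some counts changed. SRSF10 as a gene had 3 TR4-directed and 0 BCL11A-directed libraries, against 5 and 9 in the full lists. SRSF9, as a gene and at its start, had 1 and 0, also against 5 and 9. SRSF6 is in no count of calls, but it is in the counts of SR genes with a peak and of pairs.

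With lists cut to equal length, SR genes with a peak in at least 2 libraries numbered 4 and 2 for MYC and TR4 in clone T, 3 for TR4 in clone TB, 1 and 2 for MYC and HA in clone B, and 3 each for HA and MYC in clone TB. Then 1 SR region and 1 SR gene, both of SRSF4, were called with TR4 and 0 regions with BCL11A. At 3 of 3 against 0 of 3, 1 gene stood for MYC and HA in clone B, 2 for HA in clones B and TB and 2 for MYC and HA in clone TB. With −log10 q of at least 5, 1 gene (SRSF1) was called with BCL11A and 1 stood apart for MYC and TR4 in clone TB. With the gene record alone, 1 gene (SRSF5) was called with BCL11A, 3 genes had peaks with TR4 in clone TB and 6 with MYC in clone B, and 2 stood apart for MYC and TR4 in clone TB. With MYC libraries left out, 0 regions were called with BCL11A. Shorter lists, narrower windows and fewer libraries are the construction of these alternatives. The share over all protein-coding genes was not computed for pairs at equal list lengths. Nor was it computed for stricter peaks, other windows or libraries left out. Those counts have no background beside them, and nothing particular to SR genes can be read from them.

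Leaving out 1 replicate gave 0 regions with more TR4-directed and 0 to 5 with more BCL11A-directed libraries, and 0 and 0 to 1 genes. SR genes with a peak numbered 4 to 7 for MYC and 2 to 6 for TR4 in clone T, 4 to 6 for TR4 in clone TB, 6 to 10 for MYC and 5 to 10 for HA in clone B, 8 to 9 for HA in clone TB and 9 for MYC in clone TB. It gave 0 to 1 genes for TR4 in clones T and TB and for MYC and TR4 in clone TB, and 0 for the other 4 pairs.

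The labels do not say that a replicate number marks a shared batch. Same-numbered TR4- and BCL11A-directed libraries had correlations of -0.0290, -0.0265 and -0.0791 in their deviations from group means. Differently numbered ones had correlations from -0.0635 to 0.0689. Replicate 3 nevertheless had the shortest list in 7 of 7 groups. With the replicate block, 0 regions had more TR4-directed and 2 more BCL11A-directed libraries, and 0 genes either, as without it. Depth is unknown, so a missing peak may lie below the calling limit of its library.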
